A study of Mus musculus with 2 samples.

Results

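The 10 genes described here encode the receptors, co-receptors and ligands of 2 linked signaling systems of blood vessels, vascular endothelial growth factor (VEGF) with the neuropilins and a plexin, and the angiopoietins with the Tie receptors. They are Kdr, Flt1, Flt4, Nrp1, Nrp2, Plxnd1, Tek, Tie1, Angpt2 and Vegfa, chosen by symbol out of 24543 genes listed in both count tables, and all 10 were found there. The cells were CD31+CD44+ cells sorted from the caudal part of mouse embryos at E10.0 on a C57BL/6 background. In the conditional knockout (cKO) embryos, Vec-Cre;Nupr1fl/fl, Nupr1 was deleted by a Cre that the Cdh5 promoter drives in endothelial cells, so blood cells that descend from endothelium carry the deletion too. The controls were littermates with the genotypes Nupr1fl/fl or Nupr1fl/+, which were not told apart in the labels. Cells of both genotypes carried hashtag oligos and were sequenced as 1 droplet pool per replicate, with 2 replicates. How many embryos each pool held is not given in the sources used here, so p-values measure the spread between sums of pooled cells and not between embryos. In the main comparisons of cell classes these sums came from both genotypes and both replicates, with no term for either. Their spread thus mixes genotype, sex and replicate, and sums from the same pool were treated as independent.

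VEGF-A signals through Kdr (VEGFR2), the main receptor for endothelial growth and survival, while Flt1 (VEGFR1) binds the same ligand tightly and limits its access to Kdr. Flt4 (VEGFR3) is the receptor of VEGF-C and is known from veins, lymphatics and sprouting vessels. The neuropilins Nrp1 and Nrp2 are co-receptors of VEGF receptors and of plexins, and are classically assigned to arteries and to veins. Plxnd1 is the endothelial plexin that reads semaphorin cues. Tek (Tie2) is the receptor of the angiopoietins, Tie1 is its partner without a classical ligand of its own, and Angpt2 is the context-dependent antagonist of Tek. During the endothelial-to-hematopoietic transition (EHT) in the aorta, arterial cells take on a blood fate, and endothelial surface receptors are known to be lost along this path.

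The files give no cell populations, so cells were grouped by unique molecular identifier (UMI) counts of marker genes that are not among the 10. Macrophage-like cells had at least 5 C1qa UMIs, megakaryocyte-like cells at least 10 Gp9 UMIs and endothelial cells at least 5 Cdh5 UMIs. Among endothelial cells, arterial-like cells had at least 5 Gja5 UMIs, plexus-like cells at least 1 UMI each of Kitl and Esm1, venous-like cells of Nr2f2 and Aplnr, and EHT-like cells of Gfi1 and Neurl3, and a cell that met several took the last of these in this order. This gave 363 arterial-like, 90 plexus-like, 102 venous-like, 197 EHT-like, 627 macrophage-like and 203 megakaryocyte-like cells out of 2139. A further 78 endothelial and 472 other cells fell in no class, and 7 cells met the cuts of 2 lineages and were left out. The classes overlap in their markers, since 68 of the 90 plexus-like cells and 64 of the 197 EHT-like cells also met the Gja5 cut. Of the markers that were not used to choose the cells, some went with the names, such as Hey2 at 63.2 CPM (UMIs per 1000000 UMIs of a sum) in arterial-like against 0.981 in venous-like cells, Hlf at 111 CPM in EHT-like against 6.96 in arterial-like cells, Igfbp3 at 829.7 CPM in plexus-like against 340.8 in arterial-like cells, and Pf4 at 21130 CPM in megakaryocyte-like cells. Others did not, as the venous marker Ephb4 stood at 65 CPM in arterial-like and 49.9 CPM in venous-like cells, the arterial marker Gja4 at 1499 CPM in arterial-like and 1562 CPM in plexus-like cells, the plexus marker Plvap at 1292 CPM in arterial-like and 1004 CPM in plexus-like cells, and the EHT marker Procr at 176 and 177 CPM in arterial-like and EHT-like cells. UMIs were summed over the cells of 1 class, genotype and replicate, and 22 sums of at least 10 cells entered the comparisons.

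Some features of the pools bear on all results. Median UMIs per cell ranged from 38416.5 to 62116 over the 4 combinations of genotype and replicate, and from 23967 in arterial-like to 83520 in megakaryocyte-like cells. Megakaryocyte-like cells numbered 4 in the control cells of replicate 1 and 0 in the cKO cells, so that class has 2 sums, both from replicate 2. The share of cells with Xist and no chromosome Y transcript was 92.8% and 98.7% in the control pools but 0.872% and 57.6% in the cKO pools, so sex and genotype differ together and cannot be told apart. Nupr1 itself, in EHT-like sums, stood at 37.8 and 34.2 CPM in control and at 2.16 and 4.46 CPM in cKO, and in macrophage-like sums at 29.0 and 44.1 CPM in control and at 0.313 and 2.53 CPM in cKO. The 2 replicates shared 0 cell barcodes. As a measure of free RNA, Kdr had a UMI in 2.23% of macrophage-like cells (median 58068 UMIs) against 97.0% of arterial-like cells (median 23967 UMIs).

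The stretches just before the transcription start are shown for 4 members whose levels set the classes apart in different ways, Kdr, Flt1 and Tie1, which were high in all arterial-like and plexus-like sums, and Nrp2, which was high in venous-like sums. Capitals mark the motif GGAAG, the core recognized by endothelial ETS factors, on either strand (CTTCC on the other). Each run is the 250 bases before the start in RefSeq on GRCm38.p6, read along the gene.
Kdr, chr5:75978456-75978705, minus strand: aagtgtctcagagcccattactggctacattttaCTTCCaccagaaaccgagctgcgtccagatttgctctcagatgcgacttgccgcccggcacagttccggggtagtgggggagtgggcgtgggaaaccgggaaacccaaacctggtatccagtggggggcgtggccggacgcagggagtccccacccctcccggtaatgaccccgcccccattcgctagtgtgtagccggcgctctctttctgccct
Flt1, chr5:147726012-147726261, minus strand: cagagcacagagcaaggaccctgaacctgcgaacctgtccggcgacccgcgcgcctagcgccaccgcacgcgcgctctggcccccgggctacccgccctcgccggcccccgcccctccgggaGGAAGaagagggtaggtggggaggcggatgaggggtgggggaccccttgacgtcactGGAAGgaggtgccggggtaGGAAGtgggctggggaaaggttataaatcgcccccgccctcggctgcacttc
Tie1, chr4:118489850-118490099, minus strand: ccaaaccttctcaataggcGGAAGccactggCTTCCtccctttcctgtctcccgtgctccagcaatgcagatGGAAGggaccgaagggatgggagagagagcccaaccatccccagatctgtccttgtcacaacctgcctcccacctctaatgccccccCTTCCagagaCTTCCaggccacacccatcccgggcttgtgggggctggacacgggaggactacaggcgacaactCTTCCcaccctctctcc
Nrp2, chr1:62703067-62703316, plus strand: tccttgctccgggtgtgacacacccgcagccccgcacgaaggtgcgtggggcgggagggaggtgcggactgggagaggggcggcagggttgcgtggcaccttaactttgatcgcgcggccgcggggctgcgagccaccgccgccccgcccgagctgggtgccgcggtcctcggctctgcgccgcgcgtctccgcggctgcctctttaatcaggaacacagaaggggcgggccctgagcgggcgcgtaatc

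The Kdr stretch holds GGAAG on either strand 1 time, the Flt1 stretch 3 times and the Tie1 stretch 6 times, while the Nrp2 stretch holds it 0 times. RefSeq promoters were at hand for 9 of the 10 members, and 7 of these 9 hold the motif. The other without it is Tek, which was highest in arterial-like cells, while Flt4, highest in venous-like cells, holds it 1 time. The motif thus does not divide the members by class. The motif is common, found in 64.1% of all 32851 promoters of the same length. The hypoxia core ACGTG, found in 16.6% of them, was in 1 promoter of the members, the downstream of the 2 given for Vegfa. That stretch (chr17:46025164-46025413) lies inside the annotated gene, which spans 46016993 to 46032377. These matches describe letters and not bound sites. In the same annotation, Kdr spans chromosome 5 from 75932827 to 75979072, Flt1 chromosome 5 from 147561604 to 147726438, Tie1 chromosome 4 from 118471191 to 118489849, and Nrp2 chromosome 1 from 62703317 to 62818692. For Kdr and Flt1 the start that the promoter table uses lies inside the annotated gene, so other transcripts of these genes begin further upstream.

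Among the VEGF receptors, Kdr and Flt1 were highest in plexus-like and arterial-like cells, and Flt4 in venous-like cells. Kdr, in arterial-like sums, measured 294.5 and 241.6 CPM in the control replicates 1 and 2 and 264.9 and 265.3 CPM in the cKO replicates. In plexus-like sums Kdr measured 384 and 409.5 CPM in control and 342.8 and 324.2 CPM in cKO, above every arterial-like sum. In EHT-like sums it measured 39.6 and 66.6 CPM in control and 49.9 and 39.7 CPM in cKO, below every arterial-like, plexus-like and venous-like sum. The order of mean Kdr levels was plexus-like (365 ± 38.8 CPM, SD, n = 4), arterial-like (267 ± 21.7), venous-like (191 ± 27.7), EHT-like (49.0 ± 12.7), megakaryocyte-like (26.1 ± 7.78, n = 2) and macrophage-like (0.362 ± 0.245), and no 2 neighbors in it overlapped.

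Flt1, the decoy-like receptor, followed the same order among endothelial classes. It averaged 301.0 ± 54.0 CPM in plexus-like and 242 ± 41.5 CPM in arterial-like sums, which overlapped, then 115 ± 26.9 CPM in venous-like and 40.5 ± 12.8 CPM in EHT-like sums. The UMIs were counted per gene, so the membrane-bound and the soluble Flt1 transcript are not told apart. Flt4 was highest in venous-like sums, with plexus-like above arterial-like sums on average. In venous-like sums Flt4 measured 69.2 and 63.7 CPM in control and 77.5 and 46.7 CPM in cKO. The mean of 64.3 ± 12.99 CPM there compared with 43.9 ± 13.96 CPM in plexus-like and 30.7 ± 2.66 CPM in arterial-like sums, where each neighbor in the order overlapped the next, and with 4.75 ± 2.34 CPM in EHT-like sums, which lay below all of these.

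**Figure D1:**
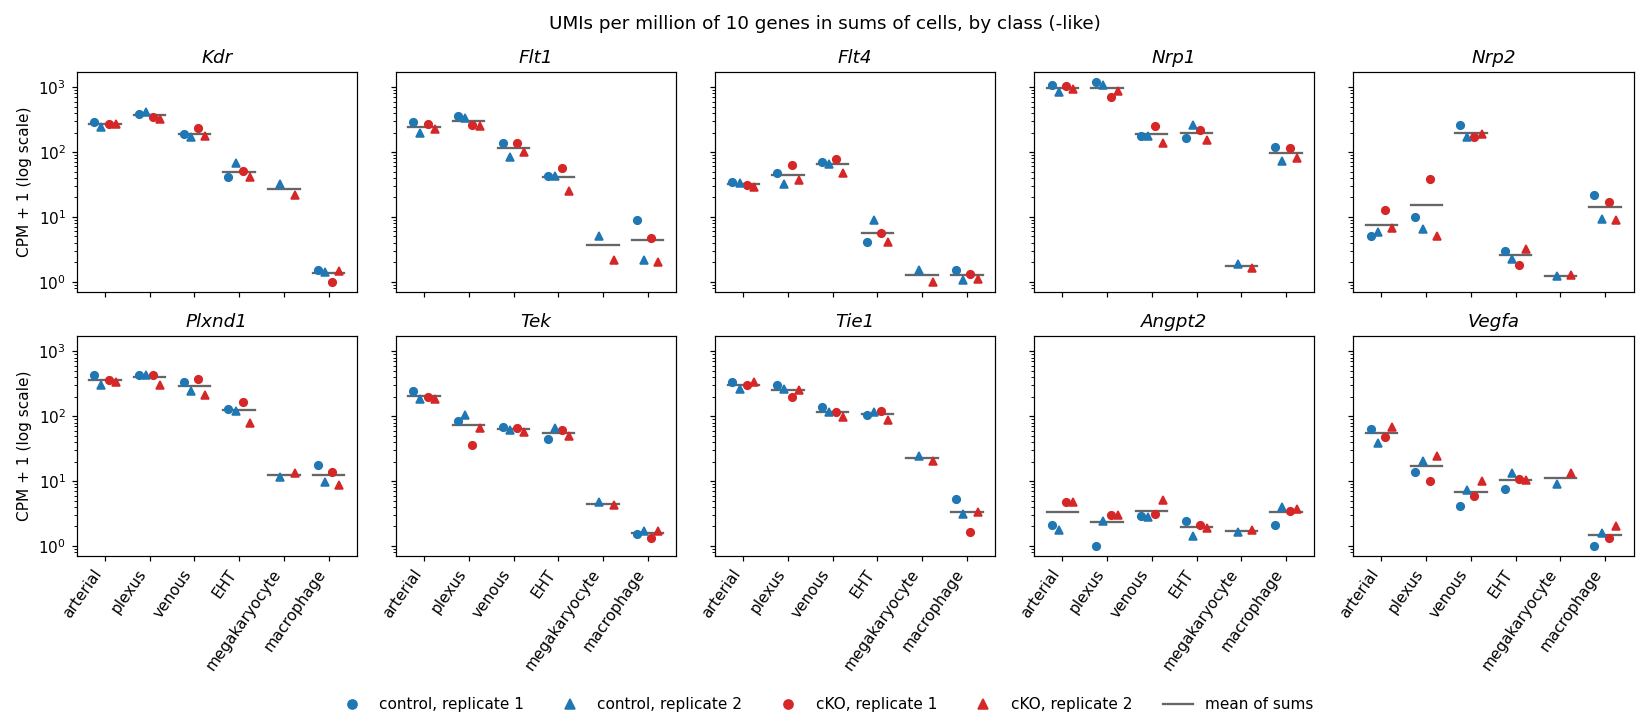
CPM plus 1 (log axis) of the 10 genes in each sum of cells, by class; color gives the genotype, shape the replicate, and the gray line the mean of the sums. Kdr, Flt1 and Plxnd1 sit higher in the 3 vessel classes than in EHT-like sums, whereas Nrp2 rises to a mean of 196 CPM in venous-like sums only. Tie1 is high in arterial-like and plexus-like sums, and its venous-like and EHT-like sums overlap.

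The neuropilins had opposite levels in arterial-like and venous-like cells. Nrp1 averaged 976 ± 114 CPM in arterial-like and 969 ± 220 CPM in plexus-like sums, which overlapped, and 186 ± 49.8 CPM in venous-like and 199 ± 50.5 CPM in EHT-like sums, which also overlapped. Nrp2, in venous-like sums, measured 256.2 and 171.5 CPM in control and 170.3 and 186.9 CPM in cKO. All 4 lay above the highest Nrp2 value of any other class, 37.7 CPM in the plexus-like cKO sum of replicate 1. The other 3 plexus-like sums measured 9.06, 5.63 and 4.05 CPM, and arterial-like sums averaged 6.64 ± 3.44 CPM. In that cKO sum of replicate 1, 11 of the 26 plexus-like cells were below the Gja5 cut and carried Nrp2 at 63.8 CPM, while the 15 others stood at 12.1 CPM.

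When each cell was thinned to 6000 UMIs, so that depth no longer differed, Nrp2 was seen in 60.8% of venous-like cells and in 3.36% of arterial-like, 8.89% of plexus-like and 1.52% of EHT-like cells (100%, 10.2%, 24.4% and 9.14% before thinning). In macrophage-like cells the thinned share was 5.60% and in megakaryocyte-like cells 0 of 203 (26% and 1.97% before thinning). Both neuropilins were seen in the same cell in 40 of 102 venous-like cells, or 39.2%, and in 8 of 90 plexus-like cells. Plxnd1 differed less among the vessel classes, averaging 403 ± 65.4 CPM in plexus-like, 360 ± 56.1 CPM in arterial-like and 292 ± 74.7 CPM in venous-like sums, each overlapping the next. It averaged 122 ± 34.6 CPM in EHT-like sums, which did not overlap the venous-like ones.

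**Figure D2:**
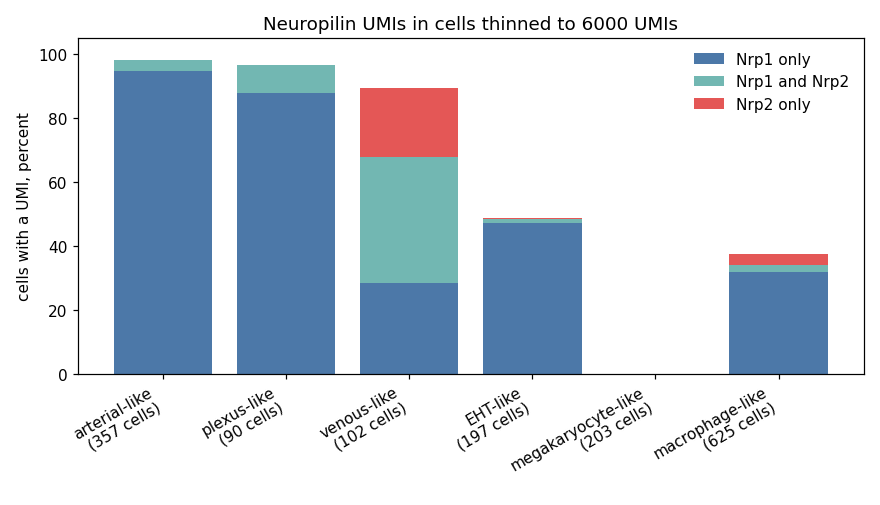
Percent of cells with a UMI of Nrp1 only, of both neuropilins or of Nrp2 only, after each cell was thinned to 6000 UMIs, by class, with the number of cells under each bar. Cells with both genes reach 39.2% of venous-like cells and at most 8.89% of any other class.

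In the angiopoietin system, both Tie receptors and the ligand Vegfa of the VEGF system were highest in arterial-like cells. Tek, in arterial-like sums, measured 241.6 and 182.8 CPM in control and 199 and 183.9 CPM in cKO. The mean of 202 ± 27.5 CPM was 2.82 times that of plexus-like sums (71.5 ± 29.6 CPM), and the plexus-like, venous-like (62.4 ± 4.43) and EHT-like (54.3 ± 10.0) sums overlapped each other. Tie1 averaged 306 ± 32.4 CPM in arterial-like and 256 ± 43.6 CPM in plexus-like sums, which overlapped, and 117 ± 15.9 CPM in venous-like and 106.5 ± 15 CPM in EHT-like sums, which overlapped as well. Angpt2 was near the limit of detection everywhere, with class means of 0.720 to 2.50 CPM, and at most 14.99% of the cells of a class had a UMI. Vegfa, in arterial-like sums, measured 61.9 and 37.2 CPM in control and 46.2 and 68.3 CPM in cKO, and all 4 lay above the highest plexus-like sum, 23.3 CPM. The other class means of Vegfa were 16.2 ± 6.44 CPM in plexus-like, 10.2 ± 2.84 CPM in megakaryocyte-like, 9.53 ± 2.35 CPM in EHT-like and 5.89 ± 2.53 CPM in venous-like sums.

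The first tested comparison asked how EHT-like cells differ from arterial-like cells, from which they are held to arise. All 9 members tested were lower in EHT-like sums, where 23.4% of all 9893 genes tested were called lower and 20.4% higher (edgeR quasi-likelihood test on 4 against 4 sums, adjusted p under 0.05). Angpt2 did not pass the filter on low counts. The median log2 change of the 9 was -2.24, against -0.0091 over all genes. Flt4 fell by 2.67 (SE 0.25, adjusted p = 3.2e-06), Flt1 by 2.51 (SE 0.20, 1.3e-06), Vegfa by 2.45 (SE 0.24, 4.0e-06), Kdr by 2.40 (SE 0.16, 4.3e-07) and Nrp1 by 2.24 (SE 0.17, 7.2e-07) on the log2 scale. The Tie receptors fell less, Tek by 1.84 (SE 0.15, adjusted p = 1.3e-06) and Tie1 by 1.47 (SE 0.13, 2.1e-06), and so did Plxnd1, by 1.50 (SE 0.18, 2.5e-05). The differences between these changes were not tested. With clusters in place of the marker cuts these 8 members fell further, Flt4 by 3.74, Nrp1 by 3.40, Kdr by 3.27, Flt1 by 3.08, Tek by 2.81 and Tie1 by 2.18 on the log2 scale. The clusters named EHT-like are a different and wider group of cells. In the one led by Cd27 and Hlf, 69 of 219 cells were EHT-like by the cuts, and in the one led by Gfi1, 104 of 143. Nrp2 was low in both classes and fell by 1.94 (SE 0.44, adjusted p = 0.0030), a call lost with control sums alone (-1.33, 0.14). The endothelial genes Cdh5 and Pecam1 also stood lower, at 346 against 1075 CPM and at 136.5 against 523 CPM, while EHT-like cells had the higher median depth (54197 against 23967 UMIs). Thinned to 6000 UMIs, the share of cells with a Kdr UMI was 22.8% in EHT-like and 77.6% in arterial-like cells (66.5% and 97.0% before thinning).

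**Figure D3:**
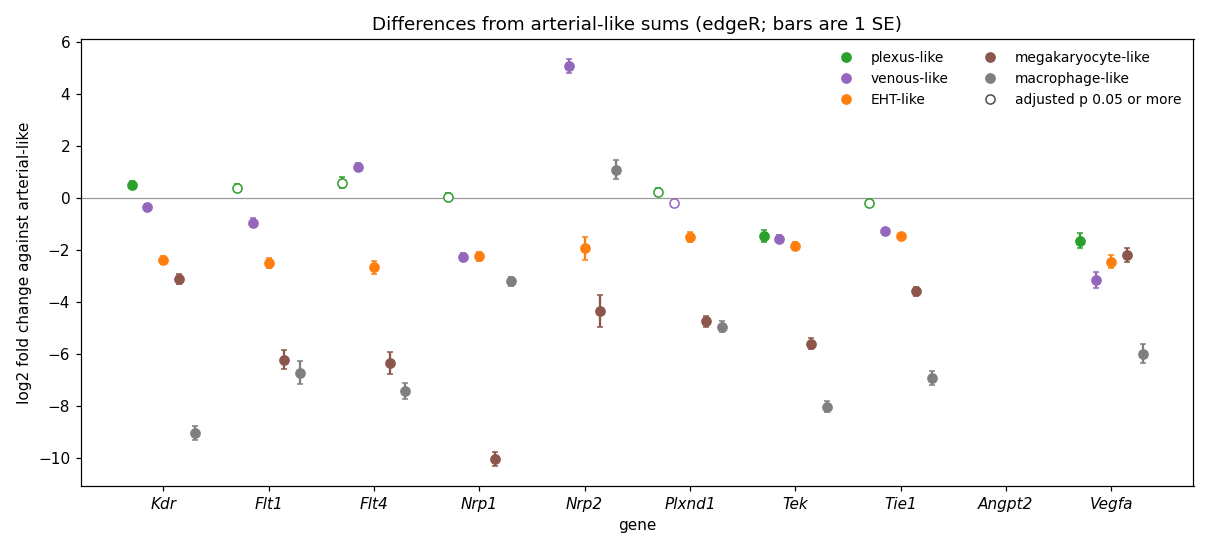
Log2 fold change of each gene against arterial-like sums, with bars of 1 SE, by class; filled circles have an adjusted p under 0.05, and genes under the filter on low counts are missing. EHT-like values (orange) lie between -2.67 and -1.47 for the 9 genes tested, and Nrp2 is 5.07 higher in venous-like sums.

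Within the EHT-like class the levels were graded with the remaining arterial marker Gja5, a division made after the values were known and given as a description. EHT-like cells at or above the Gja5 cut numbered 64 and those below it 133, with median depths of 50148 and 56400 UMIs. Kdr averaged 117 ± 28.9 CPM in the first and 19.6 ± 5.34 CPM in the second (SD, n = 4 sums each). Nrp1 averaged 532 ± 63.0 and 54.2 ± 18.7 CPM, Tek 106 ± 20.1 and 32.0 ± 4.84 CPM, and Tie1 180 ± 16.6 and 74.4 ± 12.6 CPM. For these 4 genes, and for Flt1, Flt4 and Plxnd1, the 4 sums at or above the cut did not overlap the 4 below it. The share of all genes that did not overlap in this division was not counted, so this does not set the members apart from other genes. Another 50 cells had Gfi1 and Neurl3 UMIs but fewer than 5 Cdh5 UMIs and were in no class. In their 2 sums of at least 10 cells, both from replicate 2, Kdr was at 3.34 ± 0.625 CPM and Tie1 at 20.3 ± 5.49 CPM. Vegfa ran the other way there, at 28.98 CPM in control and 17.0 CPM in cKO, against 7.04 ± 1.08 CPM in EHT-like cells below the Gja5 cut.

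**Figure D4:**
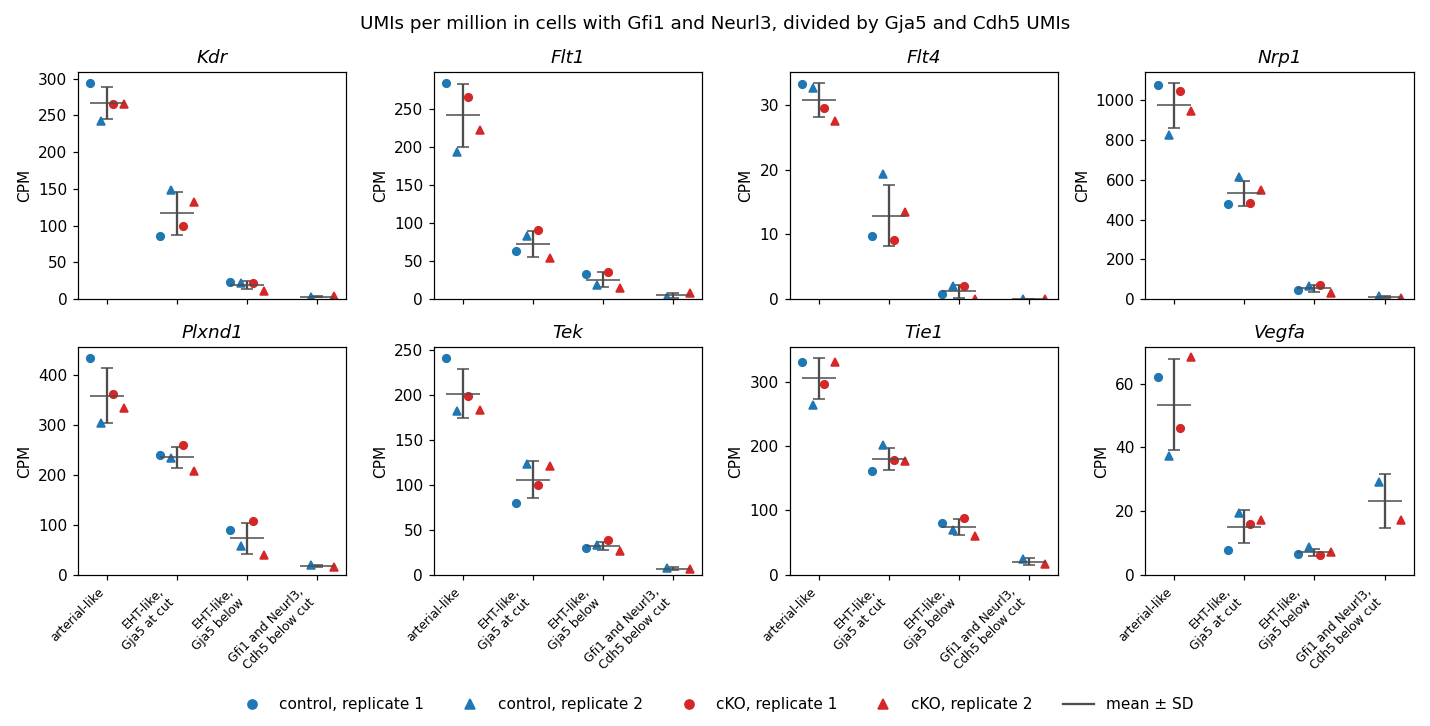
CPM of 8 genes in arterial-like cells, EHT-like cells at or above and below 5 Gja5 UMIs, and cells with Gfi1 and Neurl3 below 5 Cdh5 UMIs; points are sums of cells, and the gray bars give mean ± SD. All receptors step down from left to right, and Vegfa is higher in the last group than in EHT-like cells below the Gja5 cut.

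Plexus-like cells had lower Tek and Vegfa and higher Kdr than arterial-like cells. Of 8 members tested, 1 was called higher and 2 lower, in a comparison where 5.22% of the 8402 genes tested were called higher and 3.18% lower. Kdr was higher by 0.51 (SE 0.12, adjusted p = 0.018, edgeR), but this call was lost with control sums alone (adjusted p = 0.13) and when the arterial-like cKO sum of replicate 1 (0.063), the arterial-like control sum of replicate 2 (0.075) or the plexus-like control sum of replicate 2 (0.067) was left out. Tek fell by 1.47 (SE 0.24, adjusted p = 0.0013) and Vegfa by 1.64 (SE 0.29, adjusted p = 0.0019) on the log2 scale. With the replicate as a block, Flt1 (log2 change 0.37, adjusted p = 0.037) and Flt4 (0.57, 0.048) were called higher as well, and all genes called numbered 1290 in place of 706. Nrp1 differed by 0.04 (SE 0.16, adjusted p = 0.92). The cells classed as plexus-like at or above the Gja5 cut carried Nrp1 at 1126 ± 218 CPM and Tek at 78.5 ± 24.2 CPM, while the 22 cells below it carried Nrp1 at 472 CPM and Tek at 38.5 CPM over all of them.

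Venous-like cells differed from arterial-like cells in 8 of 9 members tested, 2 higher and 6 lower, where 15.1% of the 9306 genes tested were called higher and 17.4% lower. Nrp2 was higher by 5.07 on the log2 scale (SE 0.27, adjusted p = 5.4e-08, edgeR), and Flt4 by 1.18 (SE 0.16, 0.00014). Vegfa fell by 3.16 (SE 0.30, adjusted p = 6.3e-06), Nrp1 by 2.27 (SE 0.17, 6.4e-07), Tek by 1.58 (SE 0.13, 2.1e-06), Tie1 by 1.28 (SE 0.14, 1.5e-05) and Flt1 by 0.96 (SE 0.17, 0.00082). Kdr fell by 0.36 (SE 0.12, adjusted p = 0.037), a call that was lost under 11 of the 17 alternatives, with adjusted p up to 0.31. Plxnd1 differed by -0.19 (SE 0.16, adjusted p = 0.41) and passed with the replicate as a block (-0.21, 0.048). Venous-like cells had a median of 77027.5 UMIs, and 52 of the 102 came from the cKO cells of replicate 1. The Nrp2 change was 4.88 to 5.41 when each sum was left out in turn. Of the 102 cells, 18 also had Kitl and Esm1 UMIs, and without them Nrp2 stood at 213 ± 46.6 CPM and Flt4 at 66.4 ± 13.6 CPM.

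Outside endothelium, some of the 10 genes kept clear levels. In macrophage-like sums, 8 of 9 members tested were lower than in arterial-like sums and 1 higher, where 33.9% of the 10049 genes tested were called lower and 29% higher. Nrp1 remained at 117.5 and 72.9 CPM in the control replicates 1 and 2 and at 113.1 and 79.7 CPM in the cKO replicates. The endothelial marker Cdh5, on which the cuts bear, stood at 2.32 CPM in these cells. Of the other pan-endothelial markers, Cldn5 stood at 1.05 CPM, Esam at 1.265 CPM and Ramp2 at 6.75 CPM. Pecam1 stood at 13.26 CPM and Egfl7 at 72.2 CPM. After thinning, Nrp1 was seen in 33.9% of macrophage-like cells and in 0 of 203 megakaryocyte-like cells (87.9% and 6.90% before thinning). Nrp2 was the member called higher, by 1.09 (SE 0.37, adjusted p = 0.021, edgeR), at 20.9 and 16.3 CPM in replicate 1 and 8.26 and 8.10 CPM in replicate 2. That call was lost when either arterial-like control sum was left out (adjusted p = 0.073 and 0.066).

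Clusters of cells made without these genes, and holding cells in and out of the C1qa cut, differed in both neuropilins. The clusters do not all rest on the same sums, and both genes were higher in replicate 1 than in replicate 2 of the macrophage-like class. The part of the replicate in these differences was not tested. In the macrophage-like cluster led by Lyve1, Ms4a7 and Fcna, Nrp2 averaged 11.5 ± 4.83 CPM (n = 2 sums), and in the one led by Ccl2 and Msr1 it averaged 14.5 ± 7.52 CPM (n = 4). In the cluster led by Klrd1 and Ccr2, where 85 of 190 cells met the macrophage cut and H2-Aa and Clec12a were also among the leading genes, it was down to 1 UMI in each of 2 sums (0.148 CPM), and in the one led by Spint1 and Olfml3 at 5.17 ± 3.27 CPM (n = 2). Nrp1 averaged 96.2 ± 8.64, 96.8 ± 12.9, 42.9 ± 7.45 and 41.7 ± 13.8 CPM in the same 4 clusters.

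In megakaryocyte-like sums all 9 members tested were lower than in arterial-like sums, where 37% of the 10515 genes tested were called lower and 31.1% higher. Kdr nevertheless stood at 31.6 CPM in control and 20.6 CPM in cKO, with UMIs in 76.4% of cells and in 15.3% after thinning, against 2.23% of macrophage-like cells at full depth and 0 of 625 after thinning. Tie1 stood at 23.8 and 19.4 CPM. Of the pan-endothelial markers, Cdh5 was at 1.29 CPM, Cldn5 at 1.06 CPM and Ramp2 at 2.82 CPM. Egfl7 was at 164.8 CPM, Esam at 108.6 CPM and Pecam1 at 24.2 CPM. The low Cdh5 follows in part from the cuts, since cells with at least 10 Gp9 and at least 5 Cdh5 UMIs were left out. The class is mixed, as 107 of its 203 cells fell in clusters named megakaryocyte-like. The erythroid gene Hbb-bh1 stood at 716.8 CPM in it, against at most 4.90 CPM in the other classes. Which of these cells carried Kdr and Tie1 was not tested. Nrp1 was down to 0.763 ± 0.153 CPM (14 UMIs in the class), a log2 difference of -10.03 (SE 0.27, adjusted p = 9.1e-11) from arterial-like sums.

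The wider pathway list of 32 genes (other ligands, semaphorins, plexins, hypoxia factors, adaptors and targets) was described in the same way, and 24 of its genes could be tested in EHT-like cells. Of these, 15 were lower and 3 higher than in arterial-like sums, beside 23.4% and 20.4% of all genes, with a median log2 change of -1.21 against -0.0091. Those with the largest changes that fell were Plxna2 by 2.74, Epas1 (HIF-2alpha, an endothelial hypoxia factor) by 2.73, the arterial semaphorin Sema3g by 2.60 and the Notch ligand Dll4, a VEGF target, by 2.46. Angpt1, the agonist of Tek, rose by 3.17 (SE 0.27, adjusted p = 1.4e-06), from 8.83 ± 1.95 to 76.6 ± 23.5 CPM. Dok2, an adaptor of Tek that is also common in blood cells, rose by 2.86 (SE 0.24, 1.3e-06), from 15.2 ± 4.83 to 108 ± 24.1 CPM. The other gene that rose was Vegfb, a VEGF ligand of Flt1, by 1.26 (SE 0.15, 1.6e-05). Dok2 was at 130 ± 8.87 CPM in macrophage-like and 258 ± 17.3 CPM in megakaryocyte-like sums, and Angpt1 at 2.55 ± 4.74 and 41.8 ± 6.30 CPM. The summed level of 6 macrophage markers was 5.49 to 30.4 CPM in EHT-like and 7.39 to 35.0 CPM in arterial-like sums, and that of 6 megakaryocyte markers 51.5 to 120 and 7.55 to 98.7 CPM, with Gp9 at 18.9 and 3.32 CPM. That of 5 stem and progenitor markers was 836 to 1237 CPM in EHT-like and 98.6 to 259 CPM in arterial-like sums, and that of 6 granulocyte-monocyte markers 95.7 to 306 and 1.23 to 41.0 CPM, neither of which overlaps. Their part in these changes was not tested.

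Among the venous-like sums, 11 of 22 pathway genes tested were lower and 2 higher than in arterial-like sums, beside 17.4% and 15.1% of all genes, so the count of higher genes lay below the share over all genes. Among the largest, Dok2 (7 UMIs in venous-like cells) fell by 3.92, Angpt1 (5 UMIs) by 3.62, Sema3g by 3.30, the Flt4 ligand Vegfc by 3.23, Dll4 by 2.50 and Plxna4 by 2.50. Vegfc, which averaged 215 ± 17.0 CPM in arterial-like and 269 ± 85.2 CPM in plexus-like sums, was thus at 22.3 ± 9.07 CPM where its receptor Flt4 was highest. In plexus-like sums, 5 of 20 pathway genes were lower and 1 higher, beside 3.18% and 5.22% of all genes. Dok2 fell by 2.08, Plxna2 by 1.32, Sema3f by 1.30, Plxna4 by 1.20 and the receptor phosphatase Ptprb, which acts on Tek, by 0.83, while the VEGF-induced inhibitor Vash1 rose by 0.93 (SE 0.18, adjusted p = 0.0044), from 43.6 ± 5.63 to 79.2 ± 15.6 CPM. In macrophage-like sums 17 of 22 were lower and 2 higher, beside 33.9% and 29% of all genes. Sema3g had 0 UMIs there against 345 in arterial-like cells, and Vegfc (11 UMIs), Ptprb (15), Dll4 (8), Epas1 (15) and Plxna2 (12) were all under 1 CPM on average, while Dok2 rose by 3.25 and Vegfb by 1.87. In megakaryocyte-like sums 19 of 24 were lower and 3 higher, beside 37% and 31.1% of all genes. Sema3f (0 UMIs), Sema3g (1), Nos3 (3), Epas1 (4), Ptprb (5) and Dll4 (5) were near the limit of detection, and Dok2 rose by 4.29, Angpt1 by 2.47 and the neuropilin-binding adaptor Gipc1 by 1.50. The hypoxia factor Hif1a passed the test in none of the 5 comparisons (adjusted p from 0.18 to 0.99).

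The second question of the design, how loss of Nupr1 affects these genes, was put to each class with 2 cKO against 2 control sums. The edgeR test called 0 members in every class, 1 member had an unadjusted p under 0.05, Tek in plexus-like cells, and DESeq2 and the fit with the replicate as a block called 0 members too. In EHT-like sums 8 members were tested and 0.0101% of the 9919 genes tested were called, which is Nupr1 alone (log2 change -3.52, SE 0.42, adjusted p = 0.015). Log2 changes of the 8 members ran from -0.46 (Flt4, SE 0.58) to 0.04 (Vegfa, SE 0.42), and the cKO and control sums overlapped for all 8, where 9.94% of genes had both cKO sums below and 9.32% both above the control sums. The called share was 0% of 9966 genes in arterial-like, 0% of 7317 in plexus-like, 0% of 8198 in venous-like and 0% of 10722 in macrophage-like cells, while at an unadjusted p under 0.05 there were 110, 326, 67 and 41 genes. Nupr1, the deleted gene, was tested and not called in arterial-like sums (4.53 and 12.9 CPM in control, 0 and 0.411 CPM in cKO). Nor was it called in macrophage-like sums (29.0 and 44.1 CPM, 0.313 and 2.53 CPM). Large differences can thus go uncalled in these tests. DESeq2 called 11 genes in plexus-like cells, 1 in EHT-like cells and 0 in the other 3 classes. With the replicate as a block 9, 29, 33, 12 and 2 genes passed in EHT-like, arterial-like, plexus-like, venous-like and macrophage-like cells.

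**Figure D5:**
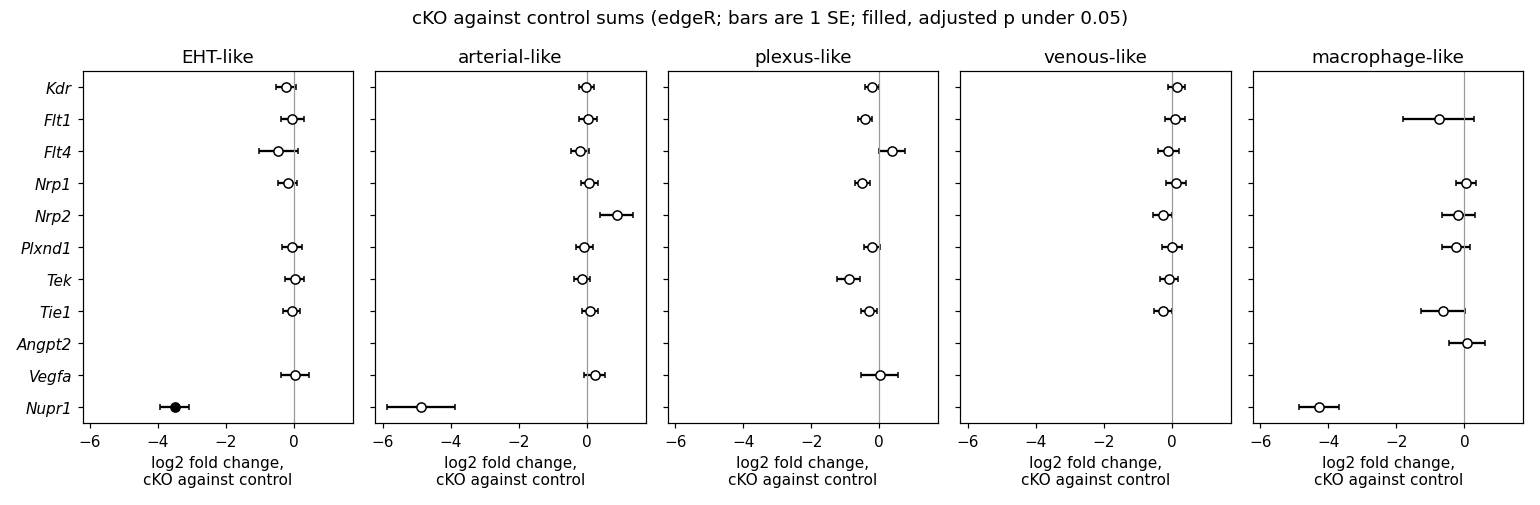
Log2 fold change of cKO against control sums for the 10 genes and Nupr1, with bars of 1 SE, in 5 classes; genes under the filter on low counts are missing, and filled circles have an adjusted p under 0.05. Nupr1 in EHT-like cells (-3.52) is the filled point, and the members lie between -0.90 and 0.89.

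In plexus-like cells, 6 of the 8 members tested (Kdr, Flt1, Nrp1, Plxnd1, Tek and Tie1) had both cKO sums below both control sums, where 16.8% of all genes tested did and 14.4% had both above. Tek, in plexus-like sums, measured 83.3 and 104.1 CPM in control and 34.7 and 63.8 CPM in cKO, a log2 change of -0.90 (SE 0.33, adjusted p = 0.99, edgeR). Nrp1 measured 1206 and 1081 CPM in control and 708 and 881.3 CPM in cKO (-0.49, SE 0.22, adjusted p = 1.0), and Flt1 358.7 and 334.9 CPM against 261.1 and 249.2 CPM (-0.41, SE 0.21, adjusted p = 1.0). These sums hold 18 and 22 control and 26 and 24 cKO cells. Other genes moved with the genotype in them, as 4 cycling markers summed to 12.7 and 66.1 CPM in control and 289.7 and 301.9 CPM in cKO, and 7 arterial markers to 2733 and 3141 CPM in control and 1694 and 2574 CPM in cKO, neither of which overlaps. Their part in the lower levels was not tested. Among the plexus-like cells at or above the Gja5 cut, 14 and 18 control and 15 and 21 cKO cells, Tek measured 81.9 and 110 CPM in control and 52.6 and 69.4 CPM in cKO, and Tie1 overlapped between genotypes (296.3 and 258.5 against 248.9 and 277.7 CPM). With the cKO sum of replicate 2 left out, 2 members were called, Tek (-1.40, adjusted p = 0.039) and Nrp2 (2.40, adjusted p = 0.0049), both resting on the single cKO sum of replicate 1, which holds the 11 cells with Nrp2 at 63.8 CPM.

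In arterial-like cells, 1 of 9 members tested had both cKO sums below the control sums (Flt4, at 29.6 and 27.6 against 33.2 and 32.6 CPM) and 1 above (Nrp2), where 11% and 10.4% of all genes did. Nrp2 gave the largest change there, 0.89 (SE 0.49, adjusted p = 1.0), from 4.15 and 4.93 CPM in control to 11.7 and 5.76 CPM in cKO, and ranged from 0.36 without the cKO sum of replicate 1 to 1.34 without that of replicate 2. Angpt2, which did not pass the filter, stood at 1.13 and 0.759 CPM in control and 3.70 and 3.70 CPM in cKO there. These values rest on 3 and 2 UMIs in control and on 6 and 9 UMIs in cKO. In venous-like cells the sums of all 8 members tested overlapped, where 9.14% of genes had both cKO sums below and 10.5% above, and the largest change was Nrp2 at -0.27 (SE 0.27). In macrophage-like cells the sums of the 6 members tested overlapped as well, where 9.07% of genes were below and 9.16% above, and the largest change was Flt1 at -0.75 (SE 1.05), from 62 UMIs in all. The difference of the cKO effect between EHT-like and arterial-like cells was tested directly for 9 members, and edgeR called 0 of them, among 0% of 10550 genes called (151 at an unadjusted p under 0.05, none of them a member, and 0 by DESeq2). The pathway list gave 0 calls in any class as well, of 13 to 24 genes tested. The SE of the members' log2 changes was 0.21 to 1.05, and Tek in plexus-like cells (-0.90, SE 0.33) did not pass, so differences well above 1 SE could not be told from the spread between pools.

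Across the 22 sums of the 6 classes, most receptors varied together. The correlation of log2(CPM + 1) was 0.98 between Flt1 and Plxnd1, 0.97 between Kdr and Tie1 and 0.97 between Tek and Tie1, while Nrp2 and Tie1 gave 0.05 and Nrp2 and Vegfa -0.29. Sums of the same pool and class share cells' libraries and depth, so these values are a description. Among 7768 genes with a mean of at least 10 CPM, those most like Kdr were Tspan9 (0.99), Csrp2 (0.98) and Adora2a (0.98), and those most like Plxnd1 were Mllt4 (0.995), Nid1 (0.994) and Hspg2 (0.993), the last 2 of which encode basement membrane proteins. Flt1 was most like Nid1 (0.99), Card10 and Col4a2 (0.98 each), Flt4 like Sox11 (0.99), Mmp15 and Bgn (0.98 each), and Nrp1 like Swap70, Fndc3b and Ckap4 (0.98 each). Tek was most like Fstl1, Fgfr1 (0.98 each) and Ctxn1 (0.97), and Tie1 like Fkbp10, Ccm2l and Armcx1 (0.98 each). Nrp2 was most like Ccnd1, Aplnr (0.88 each) and Tubb6 (0.87), of which Aplnr was used to choose venous-like cells. Vegfa was most like Bpgm (0.94), Bcr and 1810026B05Rik (0.93 each), and Angpt2 like Tpcn1 (0.65), Mcts1 (0.64) and Rap2c (0.63).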

How the data were processed

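Droplet sequencing counted 3′ UMIs in CD31+CD44+ cells of 2 replicates. The authors made the deposited counts, whole UMIs per gene and cell, with Cell Ranger 5.0.1 on mm10, and assigned each cell to a genotype from its hashtag and kept singlets. Median depth was 38416.5 to 62116 UMIs per cell, and intervals cover counting error only. No cells were removed here, although 101 of 2139 lie outside the limits the study states and Scrublet marked 6 cells (0.281%). How well Scrublet finds doublets among these hashtag singlets was not tested. Classes were set by marker cuts chosen after the marker distributions, though not the members' values, were seen. Cells near a cut (3 to 7 UMIs) numbered 37 for C1qa, 118 for Cdh5 and 78 for Gja5, and 55 for Gp9 (5 to 15 UMIs). Clusters (Leiden, leidenalg 0.10.2, resolution 1, 2000 variable genes without the members and the pathway list) served as an alternative. Sums per class, genotype and replicate were tested with edgeR 4.0.16 (filterByExpr, TMM, robust quasi-likelihood test, Benjamini-Hochberg adjustment, threshold 0.05), and DESeq2 1.42.0 was an alternative. The fits were tested on simulated data. Control and cKO cells of a replicate shared a droplet pool by the study's methods, so the number pairs them, and their deviations from the genotype means correlated at 0.31 to 0.55 across genes within a class. Levels are CPM of summed UMIs. The members and lists were chosen with earlier results of these data known. All members are named, as are up to 6 called pathway genes with the largest change per comparison and the 3 genes most like each member. Vegfb, Hif1a, Gipc1 and the divisions of classes by Gja5 or by cluster were named after their values were seen. Promoters came from RefSeq on GRCm38.p6, where Angpt2 had no entry. Residues of the encoded proteins were not used here.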

Additional observations from a re-analysis of the deposited data

Results flagged for a closer look

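Among 50 groups of 4 sums, 3 held a sum far from the other 3, by a rule that flags about 1 group in 20 by chance. Nrp2 stood at 37.74 CPM in the plexus-like cKO sum of replicate 1, against 4.05 to 9.06 CPM in the other 3. Plxnd1 stood at 304.9 CPM in the plexus-like cKO sum of replicate 2, below the other 3. Angpt2 stood at 4.172 CPM in the venous-like cKO sum of replicate 2, above the other 3, but from only 5 UMIs.

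A signal also appeared in cells outside the 6 classes. Angpt2 reached 27.97 CPM over the 25 cells of a cluster led by the mesenchymal genes Col3a1 and Col1a2, above its class means of 0.720 to 2.50 CPM. The same cells carried Nrp2 at 78.2 CPM and Vegfa at 47.7 CPM.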

How the results depend on the processing

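Of 718 log2 changes of members in the class comparisons under alternatives, 691 kept their direction and side of the threshold, 18 lost the call, 5 gained it and 4 reversed. The reversals were all Nrp1 in plexus-like against arterial-like cells (0.04), at -0.25 with cuts set 2 times as high and from -0.068 to 0.16 when 1 sum was left out. With control sums only, genes called fell from 4338 to 1898 in EHT-like, from 3021 to 1350 in venous-like and from 6322 to 4165 in macrophage-like cells, with fewer sums. With the replicate block, plexus-like cells gave 1290 genes and 5 members in place of 706 and 3, and the effect of genotype gave 9, 29, 33, 12 and 2 genes in EHT-like, arterial-like, plexus-like, venous-like and macrophage-like cells and 1 for the difference of effects. Besides Flt1 and Flt4 in plexus-like and Plxnd1 in venous-like cells, the block changed no call of a member. Plexus-like cells gave 5 members with cuts set 2 times as high and 1429 genes with clusters. For genotype, clusters gave 0 genes in EHT-like cells, DESeq2 gave 11 in plexus-like cells, and without the filter on low counts there were 13, 7, 90, 14 and 3 genes in the same 5 classes and 12 for the difference. The causes were not tested.

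Leaving out 1 sum gave 4 to 23 genes in EHT-like, 1 to 14 in arterial-like, 40 to 137 in plexus-like, 4 to 60 in venous-like and 5 to 29 in macrophage-like cells for genotype, with 0 to 2 members in plexus-like and 0 to 1 pathway genes in macrophage-like cells. The lone sum of an arm is then assumed to vary like the other. Pathway genes called in plexus-like against arterial-like cells ranged from 3 to 8 (6 with all sums). Genotype changes that turned sign were Flt4 in EHT-like (-1.02 to 0.32), Nrp2 in venous-like (-0.50 to 0.014) and Flt1 in macrophage-like cells (-1.98 to 0.71). The highest class was the same for 10 of 10 members by the mean of single-cell CPM and for 8 of 10 after thinning, where Nrp1 and Angpt2 moved to plexus-like cells. With cuts set 2 times as high, genotype could not be fitted in plexus-like and venous-like cells, and megakaryocyte-like cells have no genotype test in any setting.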
